A study of Mus musculus with 51 samples.

Results

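The pigment cell genes examined here are 5 genes that melanocytes use to make melanin: Tyrp1, Tyr, Dct, Mlana and Mitf. They were picked by symbol from the 22609 genes of every count table, after an earlier look at these data had shown lower Tyrp1 in dorsal root ganglia (DRG) after paclitaxel. All 5 were present in all 51 tables. Because of that choice the Tyrp1 difference in DRG is given as a description without a test, and tests are given for the other genes and tissues. The libraries were RNA-seq libraries of male C57 mice aged 8 to 12 weeks. The mice received PTX (paclitaxel, a taxane cancer drug that locks microtubules and can leave patients with painful neuropathy) as 2 intraperitoneal injections of 2 mg/kg given 1 day apart, or vehicle. DRG of lumbar levels L3 to L5 and hind paw punch biopsies were each sampled from PTX mice at days 2, 7, 22 and 35 and from vehicle mice at day 2. Lumbar spinal cord came as a set A, with PTX and vehicle mice at days 1 and 7, and a set B, with PTX mice at days 1, 22 and 35 and no vehicle. Each of the 17 groups had 3 libraries. No label says whether these came from separate animals, so p-values measure the spread between libraries, which may be technical.

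Melanin is made in melanosomes, lysosome-related organelles of melanocytes, which arise from the neural crest, the same embryonic source as sensory neurons and Schwann cells. Tyr (tyrosinase) carries out the first and limiting steps of melanin synthesis, Dct (dopachrome tautomerase) converts dopachrome, and Tyrp1 (tyrosinase-related protein) acts in eumelanin synthesis and stabilises tyrosinase. Mlana is a melanosome membrane protein needed for the maturation of Pmel, the protein of melanosome fibrils. Mitf is the transcription factor that drives many pigment genes in melanocytes, and it is also used by macrophages, mast cells and osteoclasts. In mice with pigmented coats most skin melanocytes sit in hair follicles.

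The promoters of the 3 enzyme genes are shown because they share a motif while their transcripts were unequal between tissues. The motif, GTCATGTGCT, is the longest run around CATGTG that the 3 promoters have in common. It holds the CATGTG core of the M-box, which Mitf binds in melanocytes. Its presence in all 3 follows from how it was found. RefSeq windows of GRCm38.p6, from 250 bases before the annotated start to 50 after it, were chr4:80833963-80834262 (plus strand) for Tyrp1, chr7:87493463-87493762 (minus strand) for Tyr and chr14:118052197-118052496 (minus strand) for Dct. They are printed 5′ to 3′ on the strand of the gene, with the motif in capitals.

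Tyrp1: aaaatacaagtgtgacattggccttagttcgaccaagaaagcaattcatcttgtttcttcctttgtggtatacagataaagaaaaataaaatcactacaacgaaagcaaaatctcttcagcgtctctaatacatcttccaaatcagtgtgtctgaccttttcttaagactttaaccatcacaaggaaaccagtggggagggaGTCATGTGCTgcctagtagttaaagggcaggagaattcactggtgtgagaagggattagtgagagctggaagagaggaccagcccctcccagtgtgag

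Tyr: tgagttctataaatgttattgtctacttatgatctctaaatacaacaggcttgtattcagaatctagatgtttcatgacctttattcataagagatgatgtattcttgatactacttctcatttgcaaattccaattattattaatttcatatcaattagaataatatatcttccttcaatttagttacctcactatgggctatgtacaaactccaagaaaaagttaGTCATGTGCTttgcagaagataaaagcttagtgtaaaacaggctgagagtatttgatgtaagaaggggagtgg

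Dct: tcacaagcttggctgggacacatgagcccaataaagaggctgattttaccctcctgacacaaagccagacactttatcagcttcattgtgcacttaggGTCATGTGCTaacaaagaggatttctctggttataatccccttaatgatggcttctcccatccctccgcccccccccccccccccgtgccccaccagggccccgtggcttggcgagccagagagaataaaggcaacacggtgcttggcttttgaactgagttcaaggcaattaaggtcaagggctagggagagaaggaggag

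With the start base counted as 0, the motif lay at -48 to -39 in Tyrp1, at -23 to -14 in Tyr and at -152 to -143 in Dct. On either strand it was found in 61 of 32851 promoter windows of the table (0.186%). Its core CATGTG, which the longer motif contains, was found in 4650 windows (14.2%), and Dct held a further copy on the other strand at -232 to -227. Neither string was found in the 3 windows listed for Mitf. A match here is a description of these letters only.

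Libraries held 18645710 to 27257659 gene reads in DRG, 13346971 to 21697763 in paw and 17661067 to 30247230 in cord, and levels are CPM, the reads of a gene per 1000000 gene reads of its library. Intervals and limits printed with them cover counting error only. The tissues carried their defining markers, with 6241 to 8879 CPM summed over 8 sensory neuron markers in DRG and 21675 to 74156 CPM over 5 keratinocyte markers in paw. In cord, 5 of the 6 set A day 1 libraries also held sensory neuron transcripts. They had 754, 168 and 303 CPM of Scn10a, a sodium channel of sensory neurons, in the 3 PTX libraries, and 245 and 222 CPM in 2 of the 3 vehicle libraries. The other 16 cord libraries held 0.109 to 1.53 CPM, and DRG held 685 to 1303 CPM. The day 35 libraries of DRG and paw and all set B cord libraries came in tables with another style of summary lines, so day 35 and that processing batch cannot be told apart. Because vehicle was sampled only at day 2 in DRG and paw, PTX and day cannot be told apart at days 7, 22 and 35, and the 4 day comparisons of a tissue share the same 3 vehicle libraries.

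In DRG, Tyrp1 was lower in every PTX library than in every vehicle library. Tyrp1 is left without a test there. Of the remaining pigment genes tested in DRG, none was called lower by edgeR's quasi-likelihood test, but calls were rare. Of 15333 genes, Tyrp1 among them, the test called 0% at days 2 and 22, 0.157% at day 7 and 0.209% at day 35 in either direction. An absence of calls is thus what most genes showed. PTX libraries held 7.41, 10.4 and 9.21 CPM of Tyrp1 at day 2, then 6.97, 5.27 and 7.50 CPM at day 7. They held 8.07, 6.90 and 7.64 CPM at day 22 and 4.56, 4.22 and 5.39 CPM at day 35, against 14.2, 12.7 and 15.5 CPM in vehicle libraries. The 12 PTX libraries thus ended at 10.4 CPM and the 3 vehicle libraries began at 12.7 CPM. Of the 15333 genes tested in DRG, 52 (0.339%) had all 12 PTX libraries below all 3 vehicle libraries, and since the gene was picked for this difference its place among them supports nothing further.

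The fitted log2 fold change of Tyrp1 in DRG, PTX over vehicle, was -0.67 ± 0.15 (SE) at day 2, -1.15 ± 0.16 at day 7, -0.92 ± 0.16 at day 22 and -1.58 ± 0.16 at day 35. Over the mean of the 4 PTX days it was -1.08 ± 0.12. In that contrast edgeR's quasi-likelihood test called 1 of 15333 genes (0.00652%) at a Benjamini-Hochberg adjusted p under 0.05. That gene was Tyrp1 itself, picked for this fall in the same libraries, so the count is no background for it. At an unadjusted p under 0.05 there were 2540 genes, and DESeq2 called 105. Nothing is read from this for Tyrp1. In order of level the PTX groups ran from day 35 (4.72 ± 0.606 CPM, SD, n = 3) through day 7 (6.58 ± 1.16) and day 22 (7.54 ± 0.592) to day 2 (9.02 ± 1.52), below vehicle (14.1 ± 1.39). Ranges of neighbouring PTX days overlapped in each case, and only the step from PTX day 2 to vehicle left a gap.

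**Figure D1:**
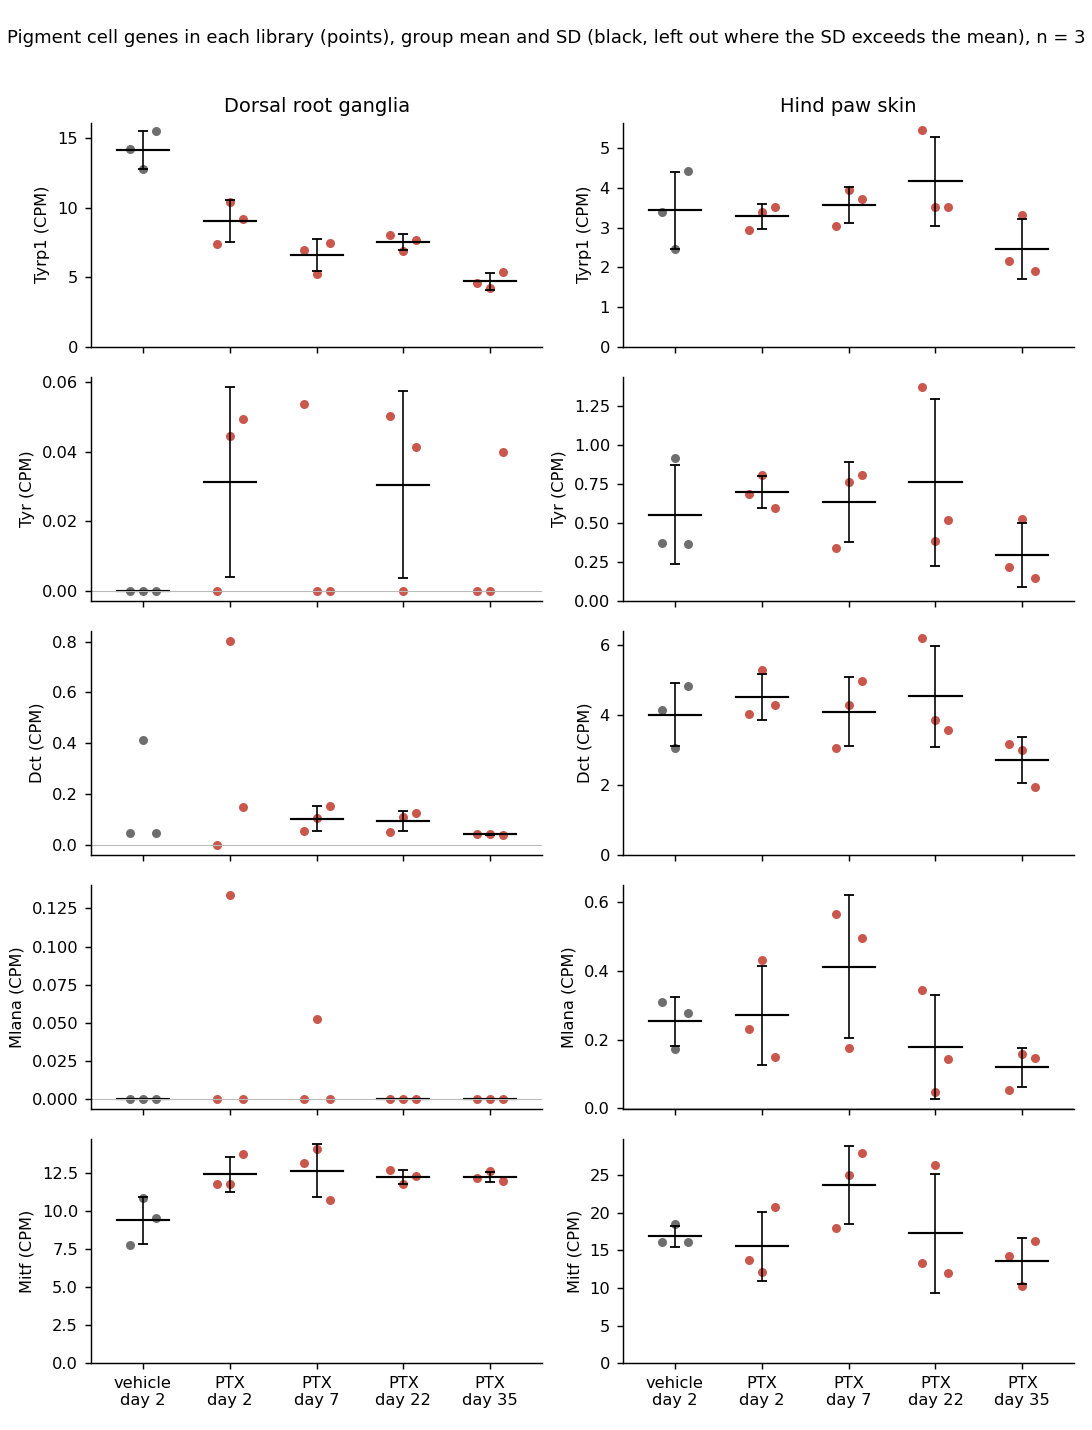
CPM (vertical axes, linear, a scale of their own in each panel) of the 5 genes in DRG (left) and hind paw (right), one point per library, for vehicle day 2 and the 4 PTX days; black lines are group means with SD, left out where the SD exceeds the mean. Tyrp1 in DRG is the panel in which PTX and vehicle points are apart (4.22 to 10.4 against 12.7 to 15.5 CPM), while the Mitf ranges in DRG overlap slightly.

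Mitf did not follow Tyrp1. Its DRG level was 11.7, 11.8 and 13.7 CPM at PTX day 2 and 13.1, 14.1 and 10.7 CPM at PTX day 7. It was 12.7, 11.7 and 12.3 CPM at PTX day 22 and 12.2, 12.6 and 11.9 CPM at PTX day 35, against 7.78, 10.8 and 9.52 CPM in vehicle. Of the 12 PTX libraries, 11 lay above the highest vehicle library, and PTX day 7 replicate 3 lay just below it, so the groups overlapped. Of all genes tested, 1.18% had every PTX library above every vehicle library, a stricter mark that Mitf did not meet. The share of genes with 11 of 12 above was not counted. The log2 fold change was 0.38 ± 0.12 (SE) at day 2, 0.38 ± 0.12 at day 7, 0.37 ± 0.12 at day 22 and 0.38 ± 0.12 at day 35, of opposite sign to that of Tyrp1 throughout. None passed the test, with edgeR adjusted p of 0.642, 0.115, 0.454 and 0.257 in that order of days and 0.220 for the mean of the 4 days (0.38 ± 0.10). All-gene calls were 0 of 15333 (0%) at days 2 and 22, 24 (0.157%) at day 7 and 32 (0.209%) at day 35, beside 1166, 1357, 3438 and 1987 genes at an unadjusted p under 0.05 for days 2, 22, 7 and 35. DESeq2 called 0, 43, 898 and 151 genes in the same order of days, Mitf not among them (adjusted p 0.541, 0.300, 0.0732 and 0.176). Without PTX day 7 replicate 3, Mitf passed at day 7 (0.47 on the log2 scale, edgeR adjusted p = 0.0407). The 4 PTX days did not differ detectably among themselves for Mitf (edgeR adjusted p = 0.9997), where 3 of 15333 genes (0.0196%) were called.

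The other 3 genes were close to absent from DRG, in vehicle as in PTX libraries. Dct had 37 reads in the 12 PTX libraries and 11 reads in the 3 vehicle libraries. Of these, 18 came from PTX day 2 replicate 2 and 9 from vehicle replicate 2, while each of the other 13 libraries held 0 to 3. Tyr had 6 reads in the PTX libraries, never more than 1 in a library, and 0 in vehicle, where 0 of 63999080 gene reads allows a level of up to 0.0469 CPM. Mlana had 4 reads in the PTX libraries, 3 of them in PTX day 2 replicate 2, and 0 in vehicle. So PTX day 2 replicate 2 held the most reads of both Dct and Mlana, and it also held the most Tyrp1 among PTX libraries (10.4 CPM).

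These 3 genes failed the filter on low counts and were compared by mean CPM with an exact two-sided permutation test over 12 PTX and 3 vehicle libraries, whose smallest possible p is 0.0022. Dct averaged 0.140 ± 0.214 CPM in PTX and 0.169 ± 0.210 CPM in vehicle (SD, exact p = 0.941). Tyr averaged 0.0233 ± 0.0246 CPM in PTX and was at 0 in vehicle (exact p = 0.229), and Mlana averaged 0.0155 ± 0.0402 CPM in PTX and was at 0 in vehicle (exact p = 0.829). With the paw test of Mlana the family held 4 tests, and the exact p-values after Benjamini-Hochberg adjustment were 0.914 to 0.949. A change of the size seen in Tyrp1 was not detectable at this depth for Tyr or Mlana, and for Dct the spread was wider than the level itself. In such bulk tissue, fewer cells of a type and less RNA per cell cannot be told apart.

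Markers of the cells around the ganglion did not separate the 2 treatments as Tyrp1 did. The 8 sensory neuron markers summed to 6241 to 8809 CPM in PTX and 8075 to 8879 CPM in vehicle. The 6 satellite glia markers summed to 1663 to 2141 CPM in PTX and 1766 to 1853 CPM in vehicle. The 6 macrophage markers summed to 98.9 to 310.2 CPM in PTX and 82.8 to 132 CPM in vehicle. The 7 leptomeningeal fibroblast markers summed to 52.5 to 129 CPM in PTX and 48.5 to 79.5 CPM in vehicle. By day, Slc6a13 and Aldh1a2 of this list lay above all vehicle libraries at PTX days 2 and 7. Slc6a13 was at 22.7 to 35.6 CPM on those days against 13.7 to 19.8 CPM in vehicle. Aldh1a2 was at 11.8 to 23.3 CPM against 6.19 to 11.1 CPM. At days 22 and 35 both overlapped vehicle. These genes were followed by day after their values were seen. The 6 mast cell markers summed to 97.8 to 132 CPM in PTX and 104 to 121 CPM in vehicle. The 6 melanocyte markers (the 5 genes and Pmel) summed to 17.2 to 24.3 CPM in PTX and 22.4 to 25.7 CPM in vehicle, with Tyr and Mlana at 0 in all vehicle DRG. That sum is mostly Tyrp1, whose fall chose the genes, and Mitf, whose fold change had the opposite sign. Its overlap therefore says nothing further about melanocyte markers. Each of these lists overlapped between the treatments, and apart from the melanocyte list all their genes had reads in both. The part of any of these cells in the Tyrp1 or Mitf values was not tested.

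**Figure D2:**
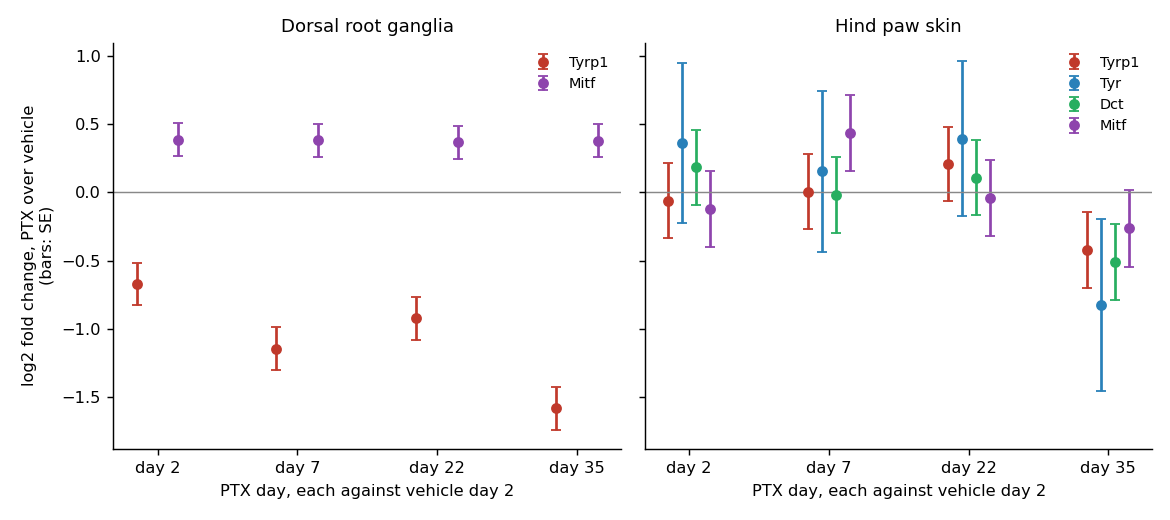
Log2 fold change with SE (vertical axis) of each PTX day over vehicle day 2 (horizontal axis) for the genes that passed the filter in DRG (left) and paw (right). Tyrp1 in DRG runs from -0.67 to -1.58 while Mitf stays at 0.37 to 0.38, and in paw the 4 genes lie between -0.12 and 0.43 at days 2 to 22 and below 0 at day 35, without passing the test.

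In paw skin all 5 genes had reads in every library, and none passed a test of PTX against vehicle. Tyrp1 was at 2.93, 3.39 and 3.52 CPM at PTX day 2, 3.05, 3.94 and 3.72 CPM at PTX day 7, 5.45, 3.51 and 3.51 CPM at PTX day 22 and 2.15, 3.32 and 1.90 CPM at PTX day 35. Vehicle paws held 3.40, 2.47 and 4.42 CPM. All 4 PTX groups overlapped vehicle.

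Dct was at 4.02, 5.27 and 4.27 CPM at PTX day 2, 3.05, 4.29 and 4.96 CPM at PTX day 7, 6.19, 3.85 and 3.56 CPM at PTX day 22 and 3.18, 3.01 and 1.95 CPM at PTX day 35. Vehicle paws held 4.14, 3.05 and 4.84 CPM. Paw PTX day 22 replicate 1 was the highest library for both genes, and for Tyr as well. Tyr ranged from 0.146 to 1.37 CPM in the 12 PTX libraries and from 0.369 to 0.920 CPM in vehicle. Mlana ranged from 0.0481 to 0.564 CPM in PTX and from 0.172 to 0.309 CPM in vehicle, and Mitf from 10.2 to 28.0 CPM in PTX and from 16.1 to 18.5 CPM in vehicle.

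The largest paw differences of the 3 enzyme genes were at day 35, where the log2 fold change was -0.42 ± 0.28 (SE) for Tyrp1, -0.51 ± 0.28 for Dct, -0.82 ± 0.63 for Tyr and -0.26 ± 0.28 for Mitf, with edgeR adjusted p of 0.919 to 0.945. No member was called in paw at any day, where all-gene calls were 0 of 15199 (0%) at days 2, 7 and 35 and 170 (1.12%) at day 22. Genes at an unadjusted p under 0.05 numbered 1119, 2091, 807 and 2835 for days 2, 7, 35 and 22, and DESeq2 called 40, 625, 23 and 1321. Over the mean of the 4 days the log2 fold changes were -0.07 ± 0.21 for Tyrp1, -0.06 ± 0.22 for Dct, 0.02 ± 0.50 for Tyr and 0.00 ± 0.22 for Mitf (edgeR adjusted p 0.939 to 0.999; 0 of 15199 genes called, 0%, 1659 at an unadjusted p under 0.05 and 314 by DESeq2). The differences among the 4 PTX days did not pass either, with edgeR adjusted p of 0.374 to 0.530 (0%, 2718 at an unadjusted p under 0.05 and 1640 by DESeq2). Mlana failed the filter in paw and averaged 0.245 ± 0.172 CPM in PTX and 0.253 ± 0.0713 CPM in vehicle (exact permutation p = 0.949, two-sided). Some lists of other cells reached higher in PTX than in vehicle paws with a narrow overlap: the 6 fibroblast markers summed to 7665 to 19592 CPM in PTX and 5970 to 7765 CPM in vehicle, the 6 macrophage markers to 324 to 1018 CPM in PTX and 218 to 353 CPM in vehicle, and the 6 mast cell markers to 115 to 276 CPM in PTX and 91.4 to 128 CPM in vehicle. Their part in the Mitf values was not tested.

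Setting the PTX effect in DRG against that in paw, the difference in log2 fold change was 0.37 ± 0.24 (SE) for Mitf, -0.57 ± 0.77 for Dct and 2.14 ± 1.53 for Tyr, which had no read in vehicle DRG. None of the 3 passed the test (edgeR adjusted p of 0.642, 0.861 and 0.678), where 0 of 16304 genes were called (0%), 1714 had an unadjusted p under 0.05 and DESeq2 called 69. For Tyrp1 the difference was -1.02 ± 0.25, given without a test.

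DRG and paw also differed in the proportion of Tyrp1 to Dct. Tyrp1 made up 98.3% of the Tyrp1 and Dct reads of DRG (2736 against 48 reads, 92.9% to 100% by library) and 46.1% of those of paw (936 against 1094 reads, 39.1% to 52.5% by library). The shares are read counts, which depend on transcript length, so they serve to compare libraries and not the 2 genes. In DRG the share was 98.0% in PTX and 98.8% in vehicle (exact 95% intervals 97.3% to 98.6% and 97.9% to 99.4%), and in paw it was 46.1% in PTX and 46.3% in vehicle (43.6% to 48.5% and 41.4% to 51.2%). The shares of DRG libraries did not overlap those of paw libraries. A share so near 100% hardly moves when Tyrp1 changes, so the DRG shares do not show an unchanged proportion. As a ratio, DRG held 49.5 Tyrp1 reads per Dct read in PTX and 82.2 in vehicle. These ratios rest on 37 and 11 Dct reads, of which 18 and 9 came from replicate 2 of PTX day 2 and of vehicle. Across paw libraries the 9 hair follicle markers, hair keratins among them, summed to 12.3 to 1048 CPM. Of these, Krt25 was lowest in PTX day 7 replicate 2 (1.06 CPM) and PTX day 22 replicate 3 (3.51 CPM). Those libraries held 3.93 and 3.51 CPM of Tyrp1 and 4.29 and 3.56 CPM of Dct, within the ranges of vehicle paws. The part of hair follicles in the pigment gene levels was not tested.

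**Figure D3:**
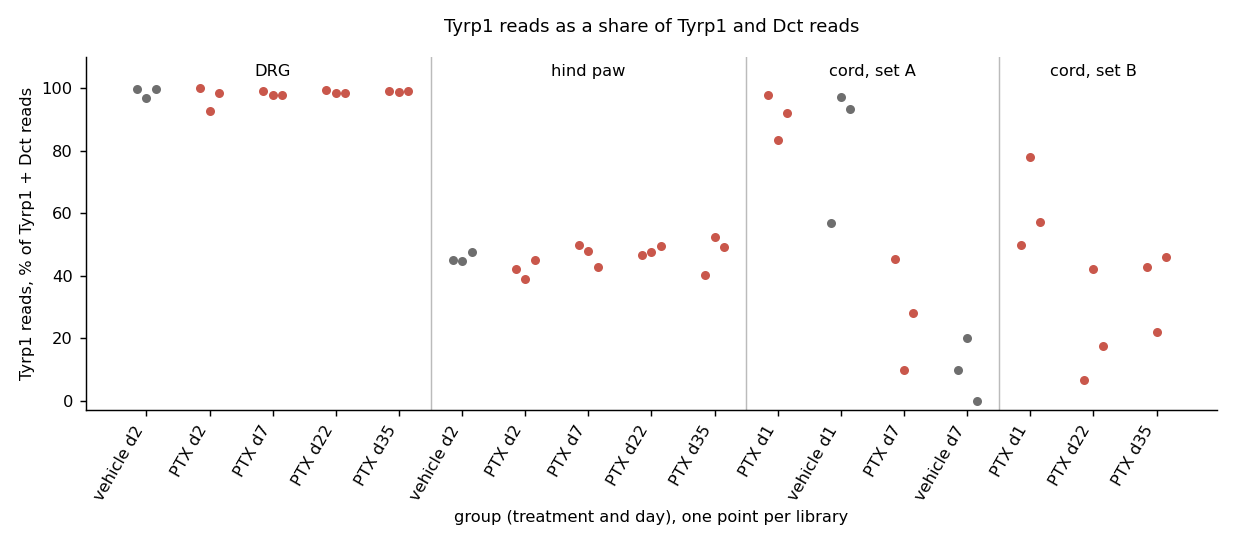
Tyrp1 reads as a percentage of Tyrp1 and Dct reads (vertical axis) in each of the 51 libraries, by group (horizontal axis); red points are PTX and grey points vehicle. DRG libraries lie at 92.9% to 100%, paw libraries at 39.1% to 52.5%, and the cord libraries of set A day 1 reach 97.9%.

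Between vehicle tissues, Tyrp1 and Dct differed in opposite directions. Tyrp1 was at 14.2, 12.7 and 15.5 CPM in vehicle DRG, against 3.40, 2.47 and 4.42 CPM in vehicle paw, a log2 difference of 2.08 ± 0.43 (SE). It is given without a test, since the vehicle DRG values entered the choice of the gene. Dct ran the other way, with 0.0474, 0.411 and 0.0476 CPM in vehicle DRG against 4.14, 3.05 and 4.84 CPM in vehicle paw (-4.46 ± 0.66, edgeR adjusted p = 4.66e-05). Tyr was at 0 in all 3 vehicle DRG libraries and at 0.370, 0.920 and 0.369 CPM in vehicle paw. Against the 3 reads that a count of 0 allows over the group, vehicle paw was at least 11.6-fold higher for Tyr and at least 5.40-fold higher for Mlana. Mitf was lower in DRG (-0.80 ± 0.17, edgeR adjusted p = 0.000726), and so was Pmel (-2.39 ± 0.36, adjusted p = 4.87e-05). Dct, Tyr and Mitf were all called here, beside 13144 of 16391 genes (80.2%).

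Against vehicle cord, Tyrp1 in vehicle DRG differed by 5.09 ± 0.45 on the log2 scale, again without a test. The cord level in these fits is the mean, on the log2 scale, of its day 1 and day 7 vehicle groups. With reads pooled over the vehicle libraries, DRG was 7.97-fold above cord for Tyrp1. Mitf was lower in DRG (-0.49 ± 0.15, edgeR adjusted p = 0.0115), and Tyr was at least 7.78-fold higher in cord. Dct did not pass (-1.16 ± 0.70, edgeR adjusted p = 0.169), but without DRG vehicle replicate 2, which held 9 of its 11 vehicle DRG reads, it was -2.90 ± 0.89 and passed (adjusted p = 0.0174). With the day 7 cord vehicle libraries alone, a choice made after seeing the data because 2 of the 3 day 1 vehicle libraries held Scn10a, the Tyrp1 difference was 7.99 ± 0.40 and that of Mitf -0.63 ± 0.16. Between paw and cord, vehicle paw was higher for Tyrp1 (3.01 ± 0.51, edgeR adjusted p = 0.000158, and 5.92 ± 0.45 with day 7 cord alone) and Dct (3.30 ± 0.45, adjusted p = 1.86e-05). Vehicle cord held 1.11, 4.50 and 4.36 CPM of Tyrp1 at day 1, which overlapped the 3.40, 2.47 and 4.42 CPM of vehicle paw. At day 7 it held 0.0403, 0.106 and 0 CPM, on 4 reads, so the fitted Tyrp1 difference rests mostly on day 7. With reads pooled, vehicle paw was 1.98-fold above vehicle cord for Tyrp1. Tyr (0.60 ± 0.54, edgeR adjusted p = 0.323) and Mitf (0.31 ± 0.14, adjusted p = 0.0552) did not pass. Mitf did pass with DESeq2 (adjusted p = 0.0180). Apart from Tyrp1, members called were 2 of 3 tested between DRG and cord, where 62.1% of genes were called. Between paw and cord, members called were 2 of 4 tested with Tyrp1 among them, where 84.1% of genes were called.

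In cord, Tyrp1 was highest in the libraries that held sensory neuron transcripts. Set A libraries of day 1 held 7.80, 3.06 and 4.30 CPM of Tyrp1 after PTX and 1.11, 4.50 and 4.36 CPM after vehicle. At day 7 they held 0.403, 0.0873 and 0.282 CPM after PTX and 0.0403, 0.106 and 0 CPM after vehicle, and set B libraries held 0.0545 to 0.406 CPM apart from 1.42 CPM in day 1 replicate 2. The 5 libraries with Scn10a were thus the 5 highest in Tyrp1, and vehicle day 1 replicate 1, with 0.383 CPM of Scn10a, was the lowest of set A day 1. In these 5 libraries there were 1.03, 1.82 and 1.42 Tyrp1 reads per 100 Scn10a reads after PTX and 1.83 and 1.96 after vehicle. DRG libraries had 0.380 to 1.27 after PTX and 1.13 to 1.83 in vehicle. The part of sensory neurons in the cord Tyrp1 levels was not tested.

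Another 2 cord libraries were over 1 CPM of Tyrp1 with Scn10a at 0.383 and 1.53 CPM, set A vehicle day 1 replicate 1 and set B day 1 replicate 2. They had the highest summed levels of the 7 leptomeningeal fibroblast markers among cord libraries, 200.1 and 173 CPM, against at most 156 CPM elsewhere. They were also high in Prx, a gene of myelinating Schwann cells, with 1828 and 1619 CPM against 71.0 to 1376 CPM in the other 14 cord libraries with Scn10a under 2 CPM. The part of these cells in the Tyrp1 level was not tested.

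**Figure D4:**
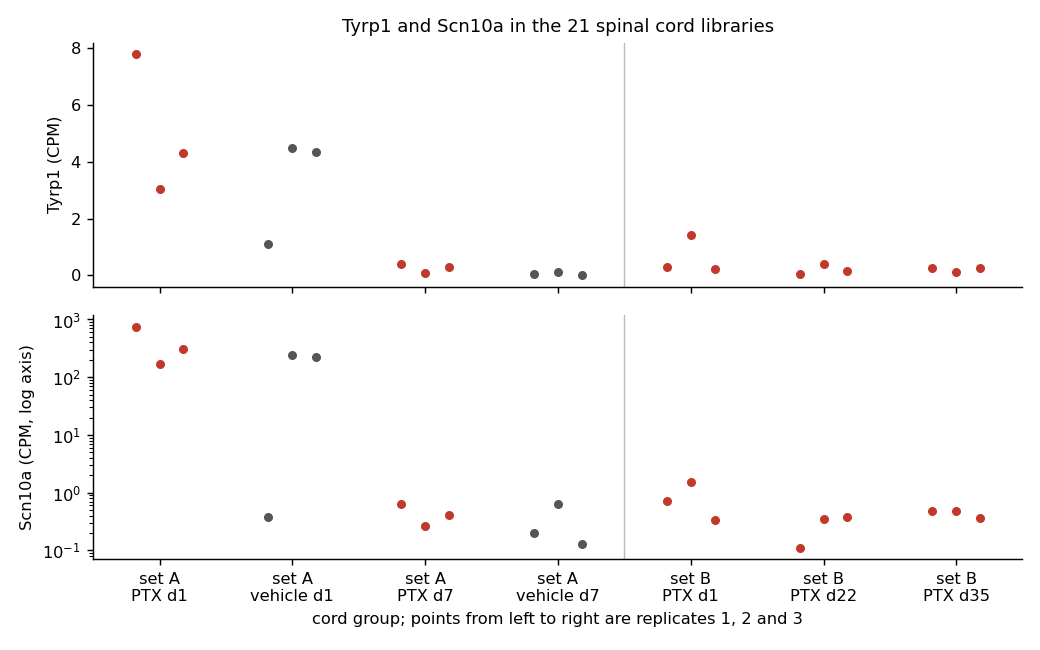
CPM of Tyrp1 (top, linear axis) and the sensory neuron channel Scn10a (bottom, log axis) in the 21 cord libraries by group; red points are PTX, grey points vehicle. The 5 libraries at 168 to 754 CPM of Scn10a are the 5 at 3.06 to 7.80 CPM of Tyrp1.

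Dct and Tyr did not stand out with Tyrp1 in the set A day 1 libraries. Dct was at 0.169, 0.598 and 0.374 CPM in set A PTX day 1 and 0.842, 0.132 and 0.309 CPM in vehicle day 1, against 0.167 to 0.786 CPM in the other 15 cord libraries. The groups overlapped throughout. Tyr stood at 0.101 to 0.565 CPM after PTX and 0.165 to 0.502 CPM after vehicle at day 1, against 0.109 to 0.845 CPM in the other cord libraries. Tyrp1 therefore made up 93.0% of Tyrp1 and Dct reads in set A PTX day 1 and 89.1% in vehicle day 1, and 35.0% in all other cord libraries.

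No member was called between PTX and vehicle cord. In set A the log2 fold change of Tyrp1 was 0.63 ± 0.58 (SE, edgeR adjusted p = 0.521) at day 1 and 2.15 ± 1.15 (adjusted p = 0.379) at day 7, the second resting on 19 reads after PTX and 4 reads after vehicle. Dct was at 0.64 ± 0.49 (edgeR adjusted p = 0.569) at day 7, and Mitf at 0.04 ± 0.14 at day 1 and -0.08 ± 0.14 at day 7. All-gene calls were 0 of 15815 (0%) at both days, with 3398 and 2516 genes at an unadjusted p under 0.05 and 173 and 611 called by DESeq2 at days 1 and 7. Within set B, Tyrp1 differed from PTX day 1 by -1.66 ± 0.88 at day 22 (edgeR adjusted p = 0.421) and -1.57 ± 0.85 at day 35 (adjusted p = 1.0), comparisons whose day 1 group holds the library with 1.42 CPM. Dct differed by 1.15 ± 0.54 at day 22 (edgeR adjusted p = 0.377), and 172 (1.09%) and 14 (0.0885%) of 15815 genes were called at days 22 and 35. Mlana had 8 reads over all 21 cord libraries and was not tested.

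In paw, Tyrp1 and Dct varied together from library to library. Over the 15 paw libraries, log2 CPM of Tyrp1 and Dct correlated with Pearson r = 0.83 and Spearman rho = 0.74 (permutation p = 0.00013 and 0.00203, adjusted over 10 pairs 0.0013 and 0.0203). The r was 0.73 without the 2 libraries farthest from the Tyrp1 median, 0.80 within groups and 0.79 without day 35. Tyr and Dct correlated with r = 0.68 (permutation p = 0.00509, adjusted 0.0254) and rho = 0.57 (permutation p = 0.0288, adjusted 0.144), but r was 0.34 without the 2 farthest libraries, so this relation rests on them. Tyr and Tyrp1 reached r = 0.61 (adjusted permutation p = 0.0531). Mitf showed no relation to the enzymes over these libraries (r of -0.0692 with Tyrp1, -0.0524 with Tyr and -0.0272 with Dct).

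In DRG none of the 6 pairs without Tyrp1 passed (smallest adjusted permutation p = 0.200, Dct with Mlana, r = 0.67, and r = 0.20 without the 2 farthest libraries). For Tyrp1 itself r was -0.67 with Mitf, 0.34 with Dct and 0.0399 with Mlana, described without a p since the choice of the gene used these libraries. Within groups the r with Mitf was -0.32.

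The genes whose log2 CPM tracked Tyrp1 most closely held no pigment gene among the top 5 in DRG and included Dct in paw. Among 13133 genes in DRG the 5 highest were Pck2 (a mitochondrial enzyme of gluconeogenesis, r = 0.95), Kdm4b (a histone demethylase, r = 0.94), Dgcr2 (r = 0.91), Lnx1 (an E3 ubiquitin ligase, r = 0.90) and Rnf112 (r = 0.90), over 15 libraries. Pck2 averaged 70.2, 63.8, 65.8 and 56.5 CPM at PTX days 2, 7, 22 and 35 and 77.6 CPM in vehicle. Its levels ranked the groups in the order of Tyrp1 over a narrower span, which a pick by correlation with Tyrp1 favours. The ranking was limited to genes averaging at least 1 on the log2 CPM scale, which left out Dct, Tyr, Mlana, Pmel and Slc24a5. Among the pigment genes ranked the closest was Hps4, at rank 1991 (r = 0.44), and Mitf stood at rank 12974. In paw, Dct stood at rank 2 of 13227 genes (r = 0.83), behind Pgrmc1 (a haem-binding membrane protein, r = 0.89) and ahead of Ppa1 (an inorganic pyrophosphatase, r = 0.82), Taf5l (r = 0.81) and Ssr4 (a subunit of the translocon-associated complex, r = 0.79). These are descriptions over libraries that share groups and depth.

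Beyond the 5 genes, wider lists of melanosome and pigment cell genes gave 30 further genes in the tables, of which 22 passed the filter in DRG and 24 in paw. None of the 22 was called in DRG at any day or over the mean of the 4 days. In that mean 13 had a log2 fold change above 0 and 9 below, with a median of 0.02 beside 0.00 over all genes tested. After Tyrp1, the lowest DRG fold changes over the 4-day mean were those of Slc24a5 (-0.33 ± 0.32, SE), a melanosome ion exchanger, Pomc (-0.22 ± 0.30), the precursor of melanocyte-stimulating hormone, and Tfap2a (-0.20 ± 0.15), a neural crest transcription factor. At day 35 Slc24a5 stood lower than in that mean. Its level was 0.0870, 0.179 and 0.240 CPM in PTX day 35 libraries, against 0.333, 0.365 and 0.569 CPM in vehicle libraries. These levels rest on 12 and 27 reads. Its log2 fold change ran 0.39 ± 0.39, 0.06 ± 0.40, -0.47 ± 0.41 and -1.29 ± 0.46 at days 2, 7, 22 and 35. Tyrp1 was at -1.58 at day 35. Slc24a5 was not called at any day (at day 35, unadjusted p = 0.0129, edgeR adjusted p = 0.283). This gene was followed by day after its values were seen. The highest in the mean were Rab32 (0.62 ± 0.19), which carries enzymes to melanosomes, Gpnmb (0.47 ± 0.31), a melanosome protein that macrophages also make, and Rab38 (0.38 ± 0.17), a partner of Rab32. Pmel had 0.402 to 1.16 CPM in PTX and 0.379 to 0.776 CPM in vehicle DRG and a fold change of 0.25 ± 0.26 (edgeR adjusted p = 0.650). The filter left out Oca2, Slc45a2, Gpr143, Trpm1, Mcoln3, Pax3, Tfec and Mc1r in DRG, several of them melanocyte transporters and receptors.

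By list in DRG, the 11 genes of melanosome movement and trafficking had a median fold change of 0.01 (7 above 0, 4 below), the 4 tested pigment cell transcription factors, Mitf among them, 0.03, and the 5 tested receptors and ligands -0.06. Sox10, the transcription factor upstream of Mitf in the melanocyte lineage and a gene of Schwann cells and satellite glia, was at 0.03 ± 0.11.

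In paw, 1 of the 24 genes was called at 1 day. Rab27a, which ties melanosomes to the actin motor through Mlph and Myo5a, was at 10.3 to 12.6 CPM at PTX day 22 against 5.75 to 6.73 CPM in vehicle (0.80 ± 0.16, edgeR adjusted p = 0.0445), beside 1.12% of all genes called. The call was lost with RLE scaling, with a replicate block and when only the 2 groups were fitted (edgeR adjusted p 0.0501 to 0.108). It was also lost without any of the 3 vehicle libraries or PTX day 22 replicates 1 or 2, with an edgeR adjusted p of 0.0163 to 0.198 over the libraries left out. Over the mean of the 4 days, 13 genes lay above 0 and 11 below, with a median of 0.03 beside 0.00 over all genes. The highest were Tfec (0.91 ± 0.53), Gpnmb (0.81 ± 0.20) and Ednrb (0.64 ± 0.32) and the lowest Pax3 (-0.35 ± 0.33), Slc24a5 (-0.32 ± 0.42) and Sox10 (-0.19 ± 0.19), none of them called. Pmel was at 1.83 to 4.12 CPM in PTX and 3.10 to 3.50 CPM in vehicle paws (-0.17 ± 0.24, edgeR adjusted p = 0.843).

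**Figure D5:**
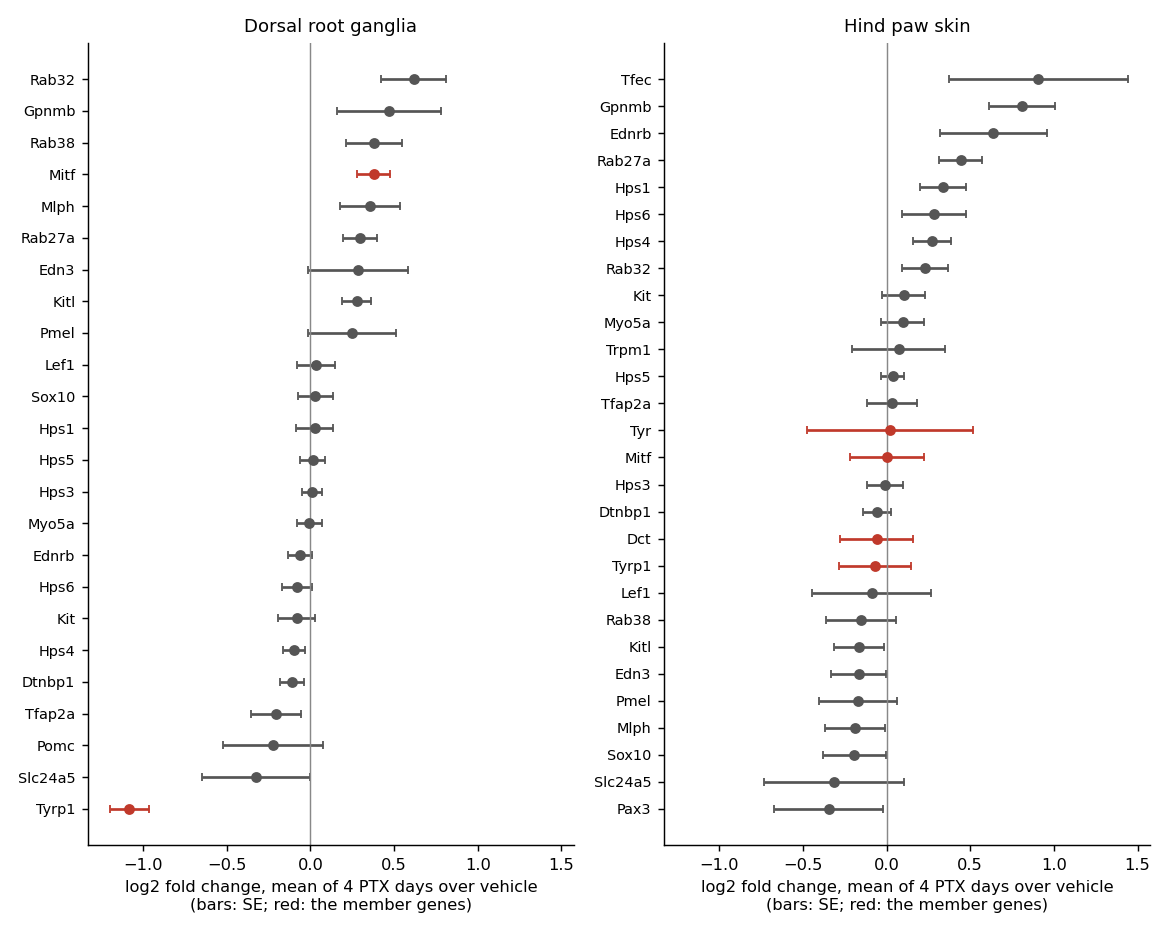
Log2 fold change with SE of the mean of the 4 PTX days over vehicle (horizontal axis) for the pigment list genes that passed the filter in DRG (left, 24 genes) and paw (right, 28 genes), sorted by value; the 5 chosen genes are red where tested. In DRG Tyrp1 is at -1.08 and the next lowest gene, Slc24a5, at -0.33 in this 4-day mean, and Mitf (0.38) is among the highest, and in paw the red points lie near 0.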

How the data were processed

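RNA-seq of 51 libraries was deposited as raw counts of reads per gene, one table per library. Per the labels' protocols, about 500 ng of RNA was made into stranded polyA libraries and read as 50-base single reads on a HiSeq 3000. The submitters' processing notes name bcl2fastq, TopHat2, HTSeq and mm9, without versions. The 5 summary lines of each table were left out. Samples were grouped by their titles, which differ from the series text on some days.

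Genes passing edgeR's filterByExpr (minimum count 10, minimum total 15) were tested per tissue with TMM scaling and the robust quasi-likelihood test of edgeR 4.0.16 in R 4.3.3, with Benjamini-Hochberg adjustment over all genes tested and a threshold of 0.05. DESeq2 1.42.0, RLE scaling, no scaling, no filter, a replicate block, fits of only the groups compared, and fits without day 35 or each library were alternatives. The tests were checked on simulated counts. Correlations used log2 CPM with a prior count of 2 and 100000 permutations. Genes were named as members, as the 3 lowest and 3 highest of the pigment lists per tissue, and as the 5 closest to Tyrp1. Members and lists were chosen with earlier results of these data known. Promoters came from RefSeq on GRCm38.p6, another build than the counts; none was matched for Mlana. One marker gene and the list that holds it are not reported here.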

Additional observations from a re-analysis of the deposited data

How the results depend on the processing

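In DRG the Tyrp1 difference stayed below 0 under all 12 alternatives at each day. The gene was picked for this fall in the same libraries, so the kept sign supports nothing further. Its log2 fold change lay between -0.79 and -0.55 at day 2 and between -1.27 and -1.01 at day 7. It lay between -0.99 and -0.85 at day 22 and between -1.70 and -1.504 at day 35. Members called and pairs correlated moved by over 1.5 times in 3 cases. Tyrp1 was left out of the member counts in DRG comparisons with PTX and kept in those between vehicle tissues. In DRG at day 7 the number of members called was 0 to 1 over the libraries left out, the 1 being Mitf without PTX day 7 replicate 3. Between vehicle paw and cord it was 4 with no filter on low counts, against 2, since Mlana then entered and Mitf passed. Between vehicle DRG and cord, with Tyrp1 counted, it was 2 to 4 over the libraries left out, a smaller move. The number of paw pairs correlated, 2, was 1 by Spearman's rho, 1 without day 35, 1 without the 2 farthest libraries and 1 to 3 over the libraries left out.

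Within a tissue, replicate numbers did not pair the libraries of the groups compared: same-numbered deviations correlated at -0.553 to 0.402. Whether DRG and paw libraries of the same number came from one mouse is not stated and was not checked. The DRG minus paw fit took them as independent. With a replicate block the DRG fold change over the 4 days was -1.08 for Tyrp1 and 0.38 for Mitf (edgeR adjusted p = 0.166), and no member's call changed. Among the wider lists, DRG day 7 calls were 1 with the block and 2 with DESeq2 or no scaling, against 0. Paw day 22 calls were 3 with DESeq2 and 0 with RLE scaling, the block or only the groups compared, against 1. Over the libraries left out, wider-list calls ran from 0 to 2 in DRG at day 7 and from 0 to 3 in paw at day 22. DESeq2 called 2 genes over the paw mean and 4 among the paw days, against 0.

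Paw and cord directions of genes that were not called often turned, and the cause was not tested. Paw day 7 Tyrp1 was -0.029 with RLE scaling, -0.033 with DESeq2 and -0.024 with only the groups compared, against 0.00. With no scaling, paw day 7 Dct was 0.028 and paw day 22 Mitf 0.029. Over the paw mean, Mitf was -0.013 with RLE scaling, -0.013 with DESeq2 and -0.0058 with the replicate block, and without day 35 Tyrp1 was 0.050 and Dct 0.091. With each library left out in turn, paw Tyrp1 ran from -0.25 to 0.17 at day 2, -0.18 to 0.24 at day 7, -0.016 to 0.44 at day 22, and over the mean from -0.25 to 0.17. Paw Dct ran from -0.18 to 0.15 at day 7, -0.16 to 0.27 at day 22, and over the mean from -0.22 to 0.10. Paw Tyr ran from -0.078 to 0.72 at day 7, -0.32 to 0.96 at day 22, and over the mean from -0.21 to 0.59. Paw Mitf ran from -0.36 to 0.017 at day 2, -0.46 to 0.14 at day 22, and over the mean from -0.10 to 0.074. In cord set A at day 1, Dct ran from -0.60 to 0.80 and Mitf from -0.027 to 0.17. At day 7 Mitf ran from -0.22 to 0.043 and Tyr from -0.80 to 0.086. In set B at day 22, Mitf ran from -0.063 to 0.11 and Tyr from -0.29 to 1.60, and Dct at day 35 from -0.075 to 0.44. The DRG minus paw difference of Dct ran from -1.09 to 1.14, the highest without DRG vehicle replicate 2, which held 9 of the 11 vehicle reads.

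Depth limits the DRG results for Tyr, Mlana and Dct, which had 6, 4 and 48 reads in 15 libraries.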
